A study of Mus musculus with 22 samples.

Results

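The genes described here are 8 markers of differentiated placental trophoblast, chosen by symbol from the deposited table of counts per gene. They are Prl3d1, Prl2c2, Prl3b1, Prl4a1, Ctsq, Tpbpa, Gcm1 and Plac1, and all 8 are present among the 21881 symbols of the table. RNA was sequenced from 3 trophoblast stem (TS) lines, 2 embryonic stem (ES) lines, 2 extraembryonic endoderm (XEN) lines and 8 mouse embryos of embryonic day 3.5. The TS lines are TS_F1 and TS_F2, labelled female, and TS_M3, labelled male. The ES lines are ES_F1, labelled female, and ES_M2, labelled male, with titles that say serum free, and the XEN lines XEN_M1 and XEN_M2 are both labelled male. All lines are labelled wild type for Nanog, the gene of a pluripotency transcription factor. Each line gave 2 libraries from different passages, which the labels call technical replicates, so the line is the replicate of a lineage and a single line speaks for itself only. The embryos were 4 Nanog-null (2 of each sex), 2 heterozygous (a female and a male) and 2 wild-type (a female and a male), and the labels do not describe the null allele.

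Trophoblast is the outer lineage of the blastocyst and builds the fetal part of the placenta. TS cells are its self-renewing form in culture, kept undifferentiated by FGF signalling. On differentiation they give rise to giant cells, which invade the uterus and secrete hormones of the prolactin family, to spongiotrophoblast and glycogen cells of the junctional zone, and to the syncytiotrophoblast of the labyrinth, where mother and fetus exchange nutrients. Prl3d1 encodes placental lactogen I, Prl2c2 encodes proliferin and Prl3b1 encodes placental lactogen II, all hormones of giant cells, and Prl4a1 encodes a further prolactin-like hormone of the placenta. Ctsq encodes a placental cysteine protease of sinusoidal giant cells. Tpbpa marks the ectoplacental cone and spongiotrophoblast, Gcm1 encodes the transcription factor that drives syncytiotrophoblast formation, and Plac1 is an X-linked gene active mainly in trophoblast.

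Line libraries held 8.20 to 23.7 M counts and embryo libraries 14.8 to 32.2 M (M, 1e6 counts), and levels are given as counts per 1e6 counts of the library (CPM). The TS markers in the table (Cdx2, Eomes, Elf5, Gata3, Esx1 and Bmp4) summed to 588 to 820 CPM in the TS libraries, against 86.7 to 152 CPM in ES libraries and 2.69 to 11.7 CPM in XEN libraries. Fibroblast markers, which would report feeder cells, summed to 44.5 to 59.0 CPM in TS_F1, 38.9 to 255 CPM in TS_F2 and 37.1 to 82.6 CPM in TS_M3. Dcn and Lum were at 0 in both TS_F1 and TS_M3, and Col1a1 had 1.82 and 14.9 CPM in TS_F1, up to 86.9 CPM in TS_F2 and 37.9 and 12.4 CPM in TS_M3. The Y-linked gene Eif2s3y had at most 0.370 CPM in TS_F1 and TS_F2, 8.33 and 11.8 CPM in TS_M3 and 16.4 to 75.1 CPM in the other lines labelled male. Xist, the RNA of the inactive X, had 269 to 502 CPM in TS_F1 and TS_F2, 68.7 and 42.9 CPM in TS_M3 and at most 10.2 CPM in the other lines labelled male. What this means for the label of TS_M3 was not tested, and comparisons between lineages are also given without TS_M3. In these bulk libraries a smaller number of differentiated cells and less RNA per cell cannot be told apart.

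Of the 8 genes, 7 were far lower in TS_F1 and TS_F2, most of them near the counting floor, than in TS_M3. Gcm1 was the exception, low in all TS lines. ES and XEN lines held almost no RNA of these genes, apart from Plac1 in XEN lines. Most of them were also at or near 0 in day 3.5 embryos, where Plac1 was the gene found most widely.

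**Figure D1:**
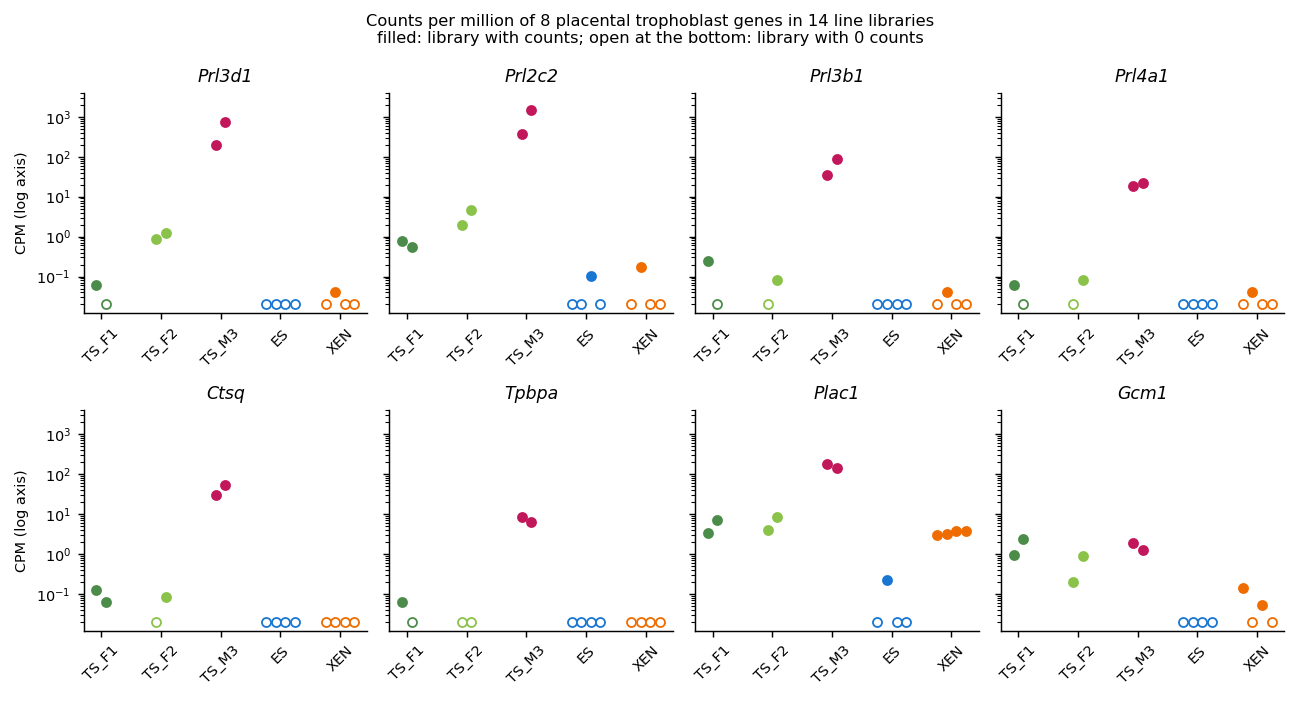
CPM (log axis) of each gene in the 14 line libraries, with 1 point per library, filled where the library has counts and open at the bottom where it has 0. In every panel but that of Gcm1 both TS_M3 libraries lie above all other libraries, and Plac1 is the only gene found in all 4 XEN libraries.

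Of the 8 genes, 6 lie on mouse chromosome 13. The promoters of the Prl3d genes are shown because Prl3d1 and its near-identical neighbours had their RNA almost wholly in TS_M3. By the GENCODE M21 annotation of GRCm38 (the deposited counts were made on mm9), Prl3d1 lies at chr13:27094190-27100258 on the plus strand. RefSeq's promoter window of Prl3d1, from 250 bases before to 50 bases after the start site, is chr13:27093939-27094238 of GRCm38.p6 and reads as follows, with capitals on a GATAA match (present here on the minus strand) and a TGANTCA match.
Prl3d1: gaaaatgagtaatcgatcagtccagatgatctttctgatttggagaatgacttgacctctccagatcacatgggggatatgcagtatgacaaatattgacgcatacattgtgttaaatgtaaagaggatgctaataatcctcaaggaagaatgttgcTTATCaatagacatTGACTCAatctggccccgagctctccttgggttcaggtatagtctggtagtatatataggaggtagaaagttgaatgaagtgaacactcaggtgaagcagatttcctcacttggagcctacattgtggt
The letters GATAA are the core bound by GATA factors and TGANTCA those bound by AP-1, and both factor families are known regulators of Prl3d1 from reporter work in rodent trophoblast cells. The matches lie 93 to 89 and 79 to 73 bases before the start site, with 9 bases between them. The same 61-base stretch around them was compared in the 3 Prl3d genes, at chr13:27094076-27094136 for Prl3d1, chr13:27121565-27121625 for Prl3d2 and chr13:27156660-27156720 for Prl3d3, all on the plus strand.
Prl3d1: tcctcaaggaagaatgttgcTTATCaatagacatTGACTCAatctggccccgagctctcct
Prl3d2: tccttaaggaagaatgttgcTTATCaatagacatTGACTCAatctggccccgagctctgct
Prl3d3: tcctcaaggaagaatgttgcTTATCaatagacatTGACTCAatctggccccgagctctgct
Both matches, and the 9 bases between them, are present in all 3 promoters. Over the aligned part of the windows, Prl3d1 was 97.9% identical to Prl3d2 (283 bases) and 98.2% identical to Prl3d3 (279 bases).

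The motifs were searched on both strands of the promoters of 7 of the 8 genes (Prl2c2 has no entry) and of Prl3d2 and Prl3d3, and no match overlapped another. The GATA letters GATAA are held by 25.4% of 32851 mouse promoters of this length. The AP-1 letters TGANTCA are held by 7.81%, and 2.60% hold both of these motifs. The GCM site ATGCGGGT is held by 0.256%, and the TATA box TATAAA by 13.6%. Prl4a1, Ctsq and the upstream Plac1 promoter hold 1 GATAA match each, with the first base 242, 235 and 246 bases before the start site. Tpbpa holds 1 TGANTCA match, 196 bases before its start site. Prl3b1 and Ctsq hold TATAAA, in both cases on the minus strand, and Gcm1 holds none of the letters searched. A match describes letters in this window and no more.

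Prl3d1, the gene of placental lactogen I, had 1 and 0 counts in TS_F1, 9 and 15 counts in TS_F2 (0.868 and 1.24 CPM), and 1919 and 9136 counts in TS_M3 (193 and 757 CPM). It was at 0 in all 4 ES libraries and had 1 count in 1 of 4 XEN libraries. TS_F1 lay below TS_F2, and both lay clear of the TS_M3 libraries. By counts set against depth, TS_M3 was 471-fold above TS_F2, with a 95% counting interval of 316 to 735. Against the single count of TS_F1 the ratio was 16399.7, with an interval of 2943 to 647811. These intervals cover counting error only. The adjusted p-values (edgeR quasi-likelihood test) were 4.79e-05 for TS_F1 over TS_M3 and 0.000294 for TS_F2 over TS_M3. For TS_F1 over TS_F2 the log2 fold change was -4.70 ± 1.59 (SE), which did not pass (adjusted p = 0.227, edgeR). It passed when either TS_M3 library was left out, with adjusted p-values of 0.0175 and 0.0259.

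Prl2c2, the proliferin gene, followed the same order at higher counts. It had 13 and 9 counts in TS_F1 (0.789 and 0.556 CPM), 20 and 56 in TS_F2 (1.93 and 4.61 CPM), and 3681 and 17846 in TS_M3 (369 and 1479 CPM). ES libraries held 1 count in all and XEN libraries 4, all 4 in the second library of XEN_M1. The 3 TS lines did not overlap. The log2 fold change was -10.51 ± 0.82 for TS_F1 over TS_M3 (adjusted p = 4.14e-05, edgeR) and -8.25 ± 0.72 for TS_F2 over TS_M3 (adjusted p = 0.000294). TS_F1 over TS_F2 gave -2.27 ± 0.83, which did not pass (adjusted p = 0.258).

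Prl2c2 and Prl3d1 have near-identical copies, so their single-gene counts are uncertain. Their transcripts in GENCODE M21 are 99.5% (Prl2c2 and Prl2c3), 96.6% (Prl2c2 and Prl2c5), 98.4% (Prl3d1 and Prl3d2) and 98.5% (Prl3d1 and Prl3d3) identical over the aligned bases. Prl2c3 and Prl2c4 had equal counts in 21 of 22 libraries, and RefSeq lists Prl2c4 as a synonym of Prl2c3, so reads of this gene stand in the table under both names. The copies had the same pattern, with Prl3d2 and Prl3d3 at 0.824 CPM or less in TS_F1 and TS_F2, and in TS_M3 at 90.9 and 333 CPM (Prl3d2) and 96.3 and 332 CPM (Prl3d3). Summing the copies into 1 feature each left the calls between TS lines unchanged for both genes. The Prl2c2 sum held Prl2c3 and Prl2c4, and so the reads of this gene under both names.

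Prl3b1, placental lactogen II, had 4 and 0 counts in TS_F1, 0 and 1 in TS_F2, and 341 and 1066 in TS_M3 (34.2 and 88.3 CPM). Prl4a1 had 1 and 0 counts in TS_F1, 0 and 1 in TS_F2, and 188 and 272 in TS_M3 (18.9 and 22.5 CPM). Both were at 0 in ES lines and at 1 count in the same XEN library. Neither gene overlapped between TS_M3 and the other TS lines, and no difference between TS_F1 and TS_F2 was detectable at this depth. By counts, Prl3b1 in TS_M3 was 522-fold above TS_F1, with a counting interval of 203 to 1918, and stood at a ratio of 1438 to the single count of TS_F2, with an interval of 258 to 56821. For Prl4a1 the ratio was 682 to the single count of TS_F1 (122 to 27011) and 470 to that of TS_F2 (83.9 to 18604). The adjusted p-values of both genes over TS_M3 (edgeR) were between 0.000138 and 0.000469. Both genes passed the filter on low counts only through TS_M3 and so had to differ. Prl3b1, whose transcript is 71.2% identical to that of Prl3d1 over 815 aligned bases, lies at chr13:27241847-27249683, and Prl4a1 at chr13:28016212-28023559, both on the plus strand of GRCm38.

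Ctsq, the placental protease, had 2 and 1 counts in TS_F1, 0 and 1 in TS_F2, and 303 and 628 in TS_M3 (30.4 and 52.0 CPM), and 0 in every ES and XEN library. TS_M3 lay clear of all other libraries. By counts TS_M3 stood at a ratio of 460 to TS_F1, with a counting interval of 157 to 2236, and of 951 to TS_F2, with an interval of 170 to 37611. The adjusted p-values (edgeR) were 8.92e-05 for TS_F1 over TS_M3 and 0.000294 for TS_F2 over TS_M3. Ctsq passed the filter on low counts only through TS_M3 and so had to differ.

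Tpbpa, the spongiotrophoblast marker, was the lowest of the genes that differed. It had a single count in TS_F1, none in TS_F2, and 82 and 77 counts in TS_M3 (8.23 and 6.38 CPM), and none in ES or XEN lines. By counts TS_M3 was at least 54.2-fold higher than TS_F2, taking 3 counts over both libraries as the floor, and stood at a ratio of 236 to the single count of TS_F1, with a counting interval of 41.7 to 9374. The adjusted p-values (edgeR) were 0.00178 for TS_F1 over TS_M3 and 0.00242 for TS_F2 over TS_M3. Tpbpa passed the filter on low counts only through TS_M3 and so had to differ. Tpbpa and Ctsq lie at chr13:60938492-60941984 and chr13:61035024-61040631 on the minus strand of GRCm38.

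Plac1 had more RNA per kilobase of exon in TS_F1 and TS_F2 than the other 6 genes that differed. It had 54 and 112 counts in TS_F1 (3.28 and 6.91 CPM), 42 and 100 in TS_F2 (4.05 and 8.24 CPM) and 1812 and 1698 in TS_M3 (182 and 141 CPM). XEN libraries held 41 to 73 counts each (2.94 to 3.74 CPM), just under or within the range of TS_F1 and TS_F2, and ES libraries held 2 counts in all. TS_M3 was 31.4-fold above TS_F1, with a counting interval of 26.8 to 36.9, and 25.3-fold above TS_F2, with an interval of 21.4 to 30.1. The log2 fold change of Plac1 was -5.12 ± 0.42 for TS_F1 over TS_M3 (adjusted p = 2.74e-05, edgeR) and -4.85 ± 0.42 for TS_F2 over TS_M3 (adjusted p = 0.000179). TS_F1 and TS_F2 overlapped, with a log2 fold change of -0.27 ± 0.39 for TS_F1 over TS_F2 (adjusted p = 0.848). Plac1 spans chrX:53069995-53240111 on the minus strand of GRCm38, with 2 start sites in RefSeq.

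Gcm1, the syncytiotrophoblast regulator, did not follow the others. It had 15 and 37 counts in TS_F1 (0.910 and 2.28 CPM), 2 and 11 in TS_F2 (0.193 and 0.906 CPM) and 19 and 15 in TS_M3 (1.91 and 1.24 CPM). TS_M3 lay inside the range of TS_F1 and above TS_F2. The joint test over the 3 TS lines gave an adjusted p of 0.354 (edgeR), and the log2 fold change was -0.11 ± 0.80 for TS_F1 over TS_M3 (adjusted p = 0.944) and -1.60 ± 0.89 for TS_F2 over TS_M3 (adjusted p = 0.25). By counts TS_M3 was 2.67-fold above TS_F2, with a counting interval of 1.37 to 5.52, and at a ratio of 0.970 to TS_F1, with an interval of 0.610 to 1.52. Gcm1 lies at chr9:78051924-78065624 on the plus strand of GRCm38.

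In the joint test over the 3 TS lines 7 of the 8 genes passed, against a background of 19.9% of 14547 genes tested. Of the 8, 7 were lower in TS_F1 than in TS_M3 (background 9.75%) and 7 were lower in TS_F2 than in TS_M3 (background 6.88%). None passed for TS_F1 over TS_F2 (background 1.53%), and DESeq2 also called none of the 8. Before adjustment 1891 of 14547 genes reached 0.05 there by edgeR, Prl3d1 and Prl2c2 among them, both lower in TS_F1. Prl3b1, Prl4a1, Tpbpa and Ctsq passed the filter on low counts only through TS_M3 and so had to differ, and the other 4 passed it without TS_M3. The p-values measure the spread between passages of a line, not between lines of one kind. The same 7 passed in every alternative fit that kept all TS libraries. Each of these fits held TS_M3, so they add nothing for the genes that passed the filter only through it.

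**Figure D2:**
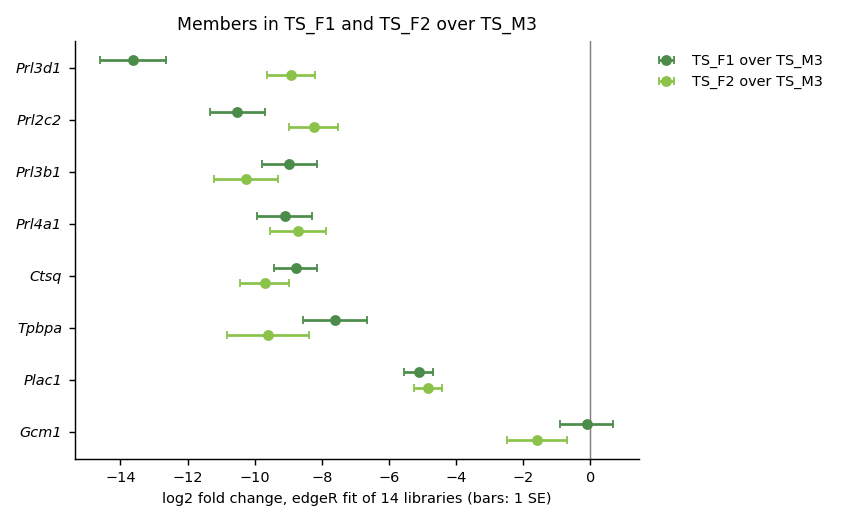
Log2 fold change of each gene in TS_F1 and in TS_F2 over TS_M3 from the fit of 14 libraries, with bars of 1 SE. All genes but Gcm1 lie at -4.85 or below in both comparisons, and Gcm1 lies at -0.11 and -1.60, while fitted values of genes with 0 to 4 counts in a line depend on the prior count and are no bounds.

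Per kilobase of annotated exon, Plac1 led in TS_F1 with 3.65 CPM per kb, ahead of Gcm1 with 0.772 and Prl2c2 with 0.617. In TS_F2 Plac1 led with 4.40 CPM per kb, ahead of Prl2c2 with 3.00 and Prl3d1 with 1.20. In TS_M3 the order was Prl2c2 (848 CPM per kb), Prl3d1 (543), Plac1 (116), Prl3b1 (57.5), Ctsq (24.7), Prl4a1 (23.6), Tpbpa (3.42) and Gcm1 (0.761). The ranges of the 2 TS_M3 libraries overlapped between Prl2c2 and Prl3d1 and between Ctsq and Prl4a1. Within each of the 2 libraries Prl2c2 lay above Prl3d1, while Ctsq and Prl4a1 changed places. With Prl2c3 and Prl2c4 counted once, the 26 prolactin genes of the table took at most 0.00197% of the counts of a TS_F1 or TS_F2 library, and up to 0.588% of those of a TS_M3 library.

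The 2 passages of TS_M3 differed by gene. CPM of Prl2c2 was 4.0-fold and that of Prl3d1 3.93-fold higher in replicate 2 than in replicate 1. Prl3b1 was 2.58-fold and Ctsq 1.71-fold higher in replicate 2, while Prl4a1 stood at a ratio of 1.19. Tpbpa (0.776), Plac1 (0.774) and Gcm1 (0.652) were lower in replicate 2 than in replicate 1. Over 10391 symbols averaging at least 5 CPM in TS_M3 the median ratio was 1.04, and 4 symbols had a higher ratio than Prl2c2 and 7 a higher one than Prl3d1. The symbols above Prl2c2 include its near-identical copy under both names, Prl2c3 and Prl2c4, and Prl7a1 of the same family. The 2 libraries are of 1 line, so no test applies.

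Of all 10391 symbols 5.17% were more than 1.5-fold higher in replicate 2 and 4.84% more than 1.5-fold higher in replicate 1. Of 12 giant cell symbols with enough RNA (Prl2c3 and Prl2c4 counted as 2), 9 were more than 1.5-fold higher in replicate 2 and none in replicate 1 (median ratio 2.76). The 9 include Prl3d2, Prl3d3, Prl2c3, Prl2c4 and Prl2c5, near-identical copies of Prl3d1 or Prl2c2. Hand1 (ratio 1.07), Bhlhe40 (0.792) and Limk2 (0.879) were not among them. Of 8 spongiotrophoblast and glycogen genes, 3 were so in replicate 2 and 1 in replicate 1 (median ratio 0.983). Of 8 syncytiotrophoblast and labyrinth genes, none was more than 1.5-fold higher in replicate 2 and 4 were so in replicate 1 (median ratio 0.705). Hsd11b2, which inactivates glucocorticoids, had 10.5 CPM in replicate 2 and 44.7 CPM in replicate 1. Gjb2, a gap junction gene of syncytiotrophoblast, had 83.2 CPM in replicate 2 and 205 CPM in replicate 1, and Dlx3, a labyrinth transcription factor, 51.7 CPM in replicate 2 and 90.5 CPM in replicate 1. Of 13 stem-state genes, 2 were more than 1.5-fold higher in replicate 2 (Cdx2 and Sox2) and none in replicate 1.

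**Figure D3:**
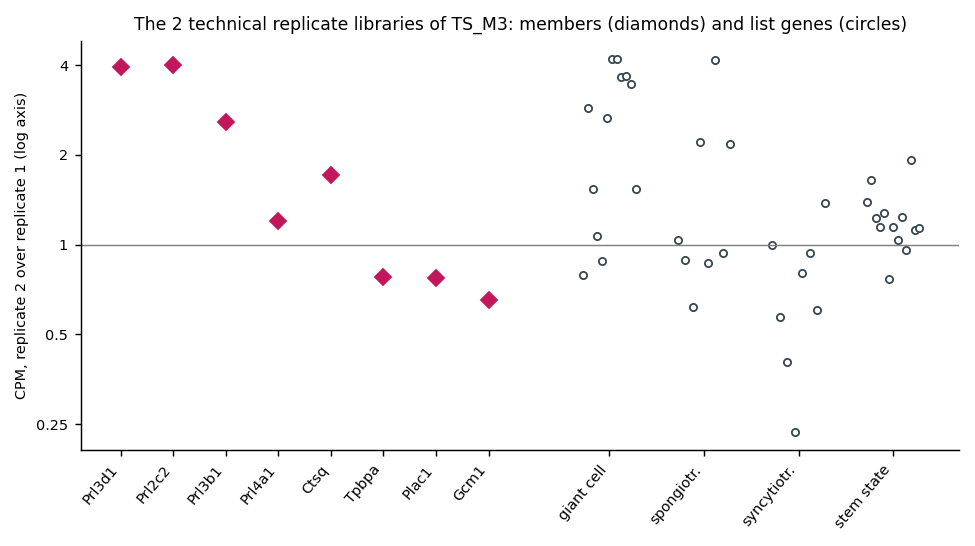
Ratio of CPM in replicate 2 over replicate 1 of TS_M3 (log axis), with the 8 genes as diamonds and the genes of each list as circles. Prl3d1 and Prl2c2 lie near 4, giant cell genes have a median of 2.76, and most syncytiotrophoblast genes lie below 1.

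Genes outside the 8 showed how far the difference between TS lines extended. Of all genes tested 9.75% were lower in TS_F1 and 6.88% lower in TS_F2 than in TS_M3. In the prolactin family, 12 of 12 tested symbols were lower in TS_F1 than in TS_M3 and 12 of 12 lower in TS_F2 than in TS_M3, although only 5 of these 12 passed the filter without TS_M3. In the giant cell list 9 of 12 were lower in TS_F1 and 8 of 12 lower in TS_F2, and none was higher. Of these 12, which count Prl2c3 and Prl2c4 as 2, 8 passed the filter without TS_M3 and the others had to differ. The exceptions included Limk2, Mmp9 and Bhlhe40, which passed in neither comparison. The symbols lower in both comparisons were Prl3d2, Prl3d3, Prl2c3, Prl2c4, Prl2c5, Prl7d1, Ctsj and Ctsr. All of them are also counted in the prolactin family or the placental cathepsins, so these lists overlap. The Prl3d and Prl2c symbols among them are near-identical copies of Prl3d1 or Prl2c2. Hand1, the basic helix-loop-helix factor that promotes giant cell fate, was abundant in all TS lines, at 1151 and 631 CPM in TS_F1, 1468 and 1124 CPM in TS_F2 and 1663 and 1773 CPM in TS_M3. It was lower in TS_F1 than in TS_M3 (log2 fold change -1.06 ± 0.34, adjusted p = 0.044, edgeR) and did not pass for TS_F2 (-0.55 ± 0.34, adjusted p = 0.30). Of the placental cathepsins 2 could be tested, Ctsj and Ctsr, and both were lower in TS_F1 and in TS_F2 than in TS_M3, with Ctsj at most at 6.43 CPM in TS_F1 and TS_F2 and at 187 and 535 CPM in TS_M3. Of these 2, 1 passed the filter only through TS_M3 and so had to be lower.

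In the spongiotrophoblast and glycogen list, 10 of 12 tested genes were lower in TS_F1 than in TS_M3 and 9 of 12 lower in TS_F2. Of all genes tested 9.75% and 6.88% were lower. The prolactin genes of this list are counted in the prolactin family too. Ascl2, the transcription factor that maintains spongiotrophoblast precursors, had 1.94 and 2.84 CPM in TS_F1, 1.45 and 5.19 CPM in TS_F2 and 28.9 and 29.8 CPM in TS_M3. Of 12 in this list 5 passed the filter without TS_M3, and the others could only be lower in TS_F1 and TS_F2. In the syncytiotrophoblast and labyrinth list, where all 8 tested genes passed the filter without TS_M3, 5 were lower in TS_F1 than in TS_M3 and 6 lower in TS_F2, and none was higher. Gjb2 was 6.51-fold and Dlx3 3.50-fold higher by counts in TS_M3 than in TS_F2. The syncytin genes Syna and Synb were not analysed here.

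The median log2 fold changes of the lists, for TS_F1 and TS_F2 over TS_M3, were -7.23 and -6.88 (giant cell), -7.23 and -3.85 (spongiotrophoblast), and -1.68 and -1.68 (syncytiotrophoblast). With genes at 0 placed at their bounds the spongiotrophoblast medians were -4.54 and -3.77. Over all genes tested the medians were 0.04 and 0.03. Without TS_M3, 8 of 12 giant cell, 5 of 12 spongiotrophoblast and 8 of 8 syncytiotrophoblast symbols passed the filter on low counts. The others passed only through TS_M3 and could only be lower in TS_F1 and TS_F2, so the medians of these lists are not like for like. Several giant cell symbols are near-identical copies of Prl3d1 or Prl2c2. The stem-state medians were 0.61 and 0.25. In that list 4 of 13 were higher in TS_F1 than in TS_M3 (Sox2, Fgfr2, Id2 and Sox21), 1 lower (Ets2), and 1 of 13 was higher in TS_F2 than in TS_M3 (Sox2). Of all genes tested 10.4% were higher in TS_F1 and 8.36% higher in TS_F2 than in TS_M3, so the count for TS_F2 was near the background. Cdx2, Eomes and Elf5, which keep TS cells undifferentiated, passed in neither comparison. Cdx2 had 114 and 144 CPM in TS_F1, 94.8 and 114 CPM in TS_F2 and 68.1 and 112 CPM in TS_M3. Elf5 had 315 and 251 CPM in TS_F1, 170 and 243 CPM in TS_F2 and 165 and 202 CPM in TS_M3. Eomes had 174 and 169 CPM in TS_F1, 177 and 201 CPM in TS_F2 and 95.9 and 110 CPM in TS_M3.

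**Figure D4:**
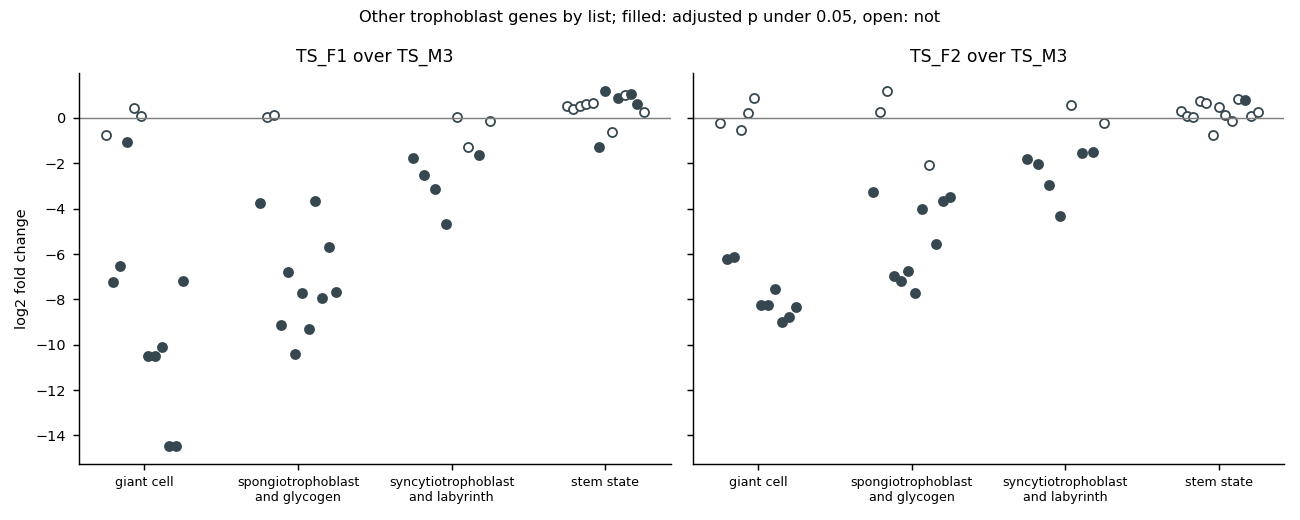
Log2 fold changes of other trophoblast genes, by list, in TS_F1 over TS_M3 (left) and TS_F2 over TS_M3 (right), filled where the adjusted p is under 0.05. Giant cell and spongiotrophoblast genes extend far below 0, syncytiotrophoblast genes less so, and stem-state genes lie near 0. Some giant cell and spongiotrophoblast genes passed the filter on low counts only through TS_M3 and had to lie below 0.

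Some markers of other cells differed with TS_M3. The endothelial list (Pecam1, Cdh5, Kdr and Tek) summed to 38.0 to 71.1 CPM in TS_F1, 112 to 204 CPM in TS_F2 and 140 to 163 CPM in TS_M3. Of the 4, Cdh5 was lower in both TS_F1 and TS_F2, with at most 10.2 CPM there and 104 and 108 CPM in TS_M3, Kdr was higher in TS_F2 than in TS_M3, and Tek had at most 0.386 CPM in every TS library. The blood and macrophage list summed to 229 to 254 CPM in TS_F1, 740 to 950 CPM in TS_F2 and 232 to 320 CPM in TS_M3, with Ptprc, the pan-leukocyte marker, at most at 0.0829 CPM in all of them. Csf1r, a macrophage receptor gene of that list, had 19.1 and 5.12 CPM in TS_F1, 35.6 and 26.3 CPM in TS_F2 and 99.1 and 79.1 CPM in TS_M3. It was lower in TS_F1 than in TS_M3 (adjusted p = 0.00385, edgeR) and did not pass for TS_F2 (adjusted p = 0.053). Not all of the list followed Csf1r. Laptm5, the largest part of the list sums, had 197 and 191 CPM in TS_F1, 856 and 684 in TS_F2 and 108 and 214 in TS_M3. In ES libraries Laptm5 had 402 to 693 CPM. Cd68 had 29.2 to 36.1 CPM in TS_F1 and TS_F2 and 23.6 and 25.2 CPM in TS_M3. Lyz2 reached 25.6 CPM in TS_F2 and at most 1.00 CPM in TS_M3. From a list of cumulus and oviduct markers, the steroid synthesis genes Star and Cyp11a1 were lower in TS_F1 and TS_F2 than in TS_M3. Cyp11a1 had 14.8 to 37.9 CPM in TS_F1 and TS_F2 and 63.8 and 110 CPM in TS_M3. Ovgp1 of that list went the other way, higher in TS_F1 than in TS_M3 (log2 fold change 2.30 ± 0.59, adjusted p = 0.0163, edgeR). The part of other cells in the difference was not tested.

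Likeness of profiles over the 7 lines was the root mean square difference between centred log2 CPM profiles among 9983 candidate genes, so a smaller value means more alike. The nearest to Prl3d1 were Prl3d3 (0.45), Prl3d2 (0.50) and Prl2c5 (0.69), and the nearest to Prl2c2 were its copies Prl2c3 and Prl2c4 (0.17 each) and Prl2c5 (0.68). Prl3b1 and Ctsq were each other's nearest genes (0.24), followed by Prl4a1 and Prl7d1 for both. The nearest to Prl4a1 were Ctsq (0.46), Prl3b1 (0.59) and Hsd3b6 (0.73), the last a steroid dehydrogenase gene. Plac1 was nearest to Csf1r (0.93), Prssl1 (0.96) and Metrnl (1.00). The values describe 7 lines, and near-identical copies share reads.

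Between lineages, the line was the replicate, and the spread among the 3 TS lines set the error. Only Prl3d1, Prl2c2, Gcm1 and Plac1 passed the filter on low counts. Prl3d1, Prl2c2 and Gcm1 were at or near 0 in ES and XEN lines. They passed this filter through TS lines alone, so their direction was fixed. Gcm1 averaged 1.24 ± 0.60 CPM in TS lines (SD, n = 3), 0 CPM in ES lines and 0.0486 ± 0.0325 CPM in XEN lines (n = 2). Its counts were at least 15.5-fold higher in TS than in ES lines and 29.8-fold higher than in XEN lines, with a counting interval of 9.92 to 147 on 3 XEN counts. Without TS_M3 these were at least 14.3-fold and 27.4-fold (8.97 to 136). The adjusted p-values (edgeR) were 0.00629 against ES lines and 0.0109 against XEN lines, and Gcm1 was the 1 of the 4 that passed in both comparisons. Of all genes tested 21.3% were higher in TS than in ES lines. Of 13 stem-state genes 10 were higher and 2 lower in TS than in ES lines, with Elf5 at a ratio of 2832 to its 3 ES counts (counting interval 969 to 13736) and Id2 at a log2 fold change of 7.43. Of 12 giant cell genes 4 were higher and none lower, with Hand1 at 10.54 and the protease gene Mmp9 at 8.35. Of 8 syncytiotrophoblast genes 6 were higher and none lower, with Dlx3 at 7.56 and Gjb2 at 7.08, and of 9 prolactin genes none passed by edgeR (3 reached 0.05 before adjustment). Without TS_M3, where 21.5% of all genes were higher and 20.1% lower, these counts were 10 higher and 2 lower of 13 (stem state), 8 of 8 higher (giant cell), 6 of 8 higher (syncytiotrophoblast) and 2 of 2 higher (prolactin family). The 2 prolactin symbols were Prl2c3 and Prl2c4, which are 1 gene under both names. The giant cell count holds both as well, with Ctsj and Ctsr. All of these symbols were at or near 0 in ES and XEN lines and passed the filter through TS lines alone. Their direction was fixed, so the share over all genes is no like background for them.

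Plac1 averaged 57.5 ± 89.9 CPM in TS lines (SD, n = 3), 0.0542 ± 0.0767 CPM in ES lines and 3.37 ± 0.506 CPM in XEN lines (n = 2). Its log2 fold change was 10.02 ± 2.53 for TS over ES (adjusted p = 0.0177, edgeR) and 3.88 ± 1.63 for TS over XEN, which did not pass (adjusted p = 0.102). The 2 ES counts put the TS over ES ratio at 898 with a counting interval of 248 to 7419, and without TS_M3 at 101, with an interval of 27.8 to 841. Prl2c2 averaged 309 ± 532 CPM in TS lines, 0.0262 CPM in ES lines and 0.0422 CPM in XEN lines, and Prl3d1 159 ± 274 CPM in TS lines, 0 CPM in ES lines and 0.0106 CPM in XEN lines. Prl3d1 was at least 1738-fold higher in TS than in ES lines by counts, and at least 5.49-fold higher without TS_M3, from 25 counts in TS_F1 and TS_F2. Neither passed against ES lines (adjusted p = 0.0626 and 0.110 for Prl2c2 and Prl3d1) or against XEN lines (0.0654 and 0.113). With the copies of each gene summed, Prl2c2 passed against ES lines (adjusted p = 0.0401, edgeR) and against XEN lines (0.0459), and Prl3d1 did not (0.0858 and 0.0912). The Prl2c2 sum holds Prl2c3 and Prl2c4, so reads of this gene enter it under both names. A sum with them counted once was not tested. For Plac1, Prl2c2 and Prl3d1 the SD over TS lines exceeded the mean.

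Of the 4 genes, 2 were higher in TS than in ES lines, where 21.3% of all genes were, and 1 of 4 was higher in TS than in XEN lines, where 20.3% were. Prl3d1, Prl2c2 and Gcm1 could only be higher in TS lines, so these shares are no like background for them. No gene of the 4 passed for ES over XEN, where 45.1% of all genes did in either direction (7790 before adjustment, Plac1 among them, at a log2 fold change of -6.14 ± 2.54 and adjusted p = 0.0858). The calls moved with single lines. Without TS_M3, Prl3d1 no longer passed the filter, while Gcm1, Plac1 and Prl2c2 all passed against ES lines, and Gcm1 and Prl2c2 against XEN lines. Plac1 then had a log2 fold change of 0.43 ± 0.59 for TS over XEN (adjusted p = 0.592) and -6.14 ± 0.88 for ES over XEN (adjusted p = 0.0023). Without XEN_M1 or XEN_M2 Gcm1 lost its call against XEN lines, at adjusted p-values of 0.0606 and 0.069, and without ES_F1 or ES_M2 Plac1 lost its call against ES lines, at 0.12 and 0.127. With sex as a term all 4 passed against both lineages, where TS_M3 is the only TS line labelled male.

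The 4 genes left out of that test had counts in TS lines almost wholly from TS_M3. Summed over TS lines, Ctsq was at least 282-fold and Tpbpa at least 48.2-fold higher than in XEN lines. Against ES lines, where all 4 were at 0, Prl3b1 was at least 221-fold, Ctsq at least 147-fold, Prl4a1 at least 72.5-fold and Tpbpa at least 25.1-fold higher. Without TS_M3 these 4 genes had 5 (Prl3b1), 4 (Ctsq), 2 (Prl4a1) and 1 (Tpbpa) counts over the other TS libraries, at or near the floor.

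Nanog itself stood at 0.300 to 0.624 CPM in the 4 null embryos, against 53.6 and 87.6 CPM in heterozygous and 107 and 137 CPM in wild-type embryos. In the day 3.5 embryos, whose libraries came from amplified cDNA and were not compared with the lines, Plac1 was the only one of the 8 found in most embryos. It had 13.4, 0, 43.9 and 0 CPM in the 4 Nanog-null embryos (female 1, female 2, male 1 and male 2), 18.0 and 18.4 CPM in the heterozygous female and male, and 31.5 and 13.1 CPM in the wild-type female and male. Nanog-null embryos thus spanned from none to the highest value of all, and the 4 Nanog-bearing embryos lay within that span. The log2 fold change of null over Nanog-bearing embryos was -0.66 ± 1.79 (adjusted p = 0.998, edgeR), in a fit where 2 of 12965 genes, 0.0154%, passed. Before adjustment 644 genes reached 0.05, and DESeq2 called 87, none of them among the 8. The null embryos had 3 counts or fewer for 570, 300, 133 and 809 genes that average at least 5 CPM in the other 7, while heterozygous and wild-type embryos had 40 to 68 such genes each, and the part of this in the zeros of Plac1 was not tested.

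Prl3b1 was the other gene to pass the filter in embryos. It had 64 counts in null female 2 (2.92 CPM) and none in the other 3 null embryos, 42 counts in the heterozygous male (2.84 CPM) and 16 in the wild-type female (0.677 CPM), and none in the remaining heterozygous and wild-type embryos. The log2 fold change was -2.51 ± 2.68 (adjusted p = 0.996, edgeR), and its sign turned without the sex term. Ctsq had 61 counts in the wild-type male alone, and Prl2c2 had 13 and Prl4a1 2 in the wild-type female alone. Prl3d1, Tpbpa and Gcm1 were at 0 in all 8 embryos. For comparison within the same libraries, the trophectoderm factor Cdx2 was found in every embryo. It had 31.3 to 72.6 CPM in null and 56.5 to 93.8 CPM in Nanog-bearing embryos. Eomes was also found in every embryo. Elf5, like Plac1, was at 0 in null female 2 and null male 2. It had 6.59 CPM in null female 1, 34.4 CPM in null male 1 and 3.93 to 31.8 CPM in Nanog-bearing embryos.

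**Figure D5:**
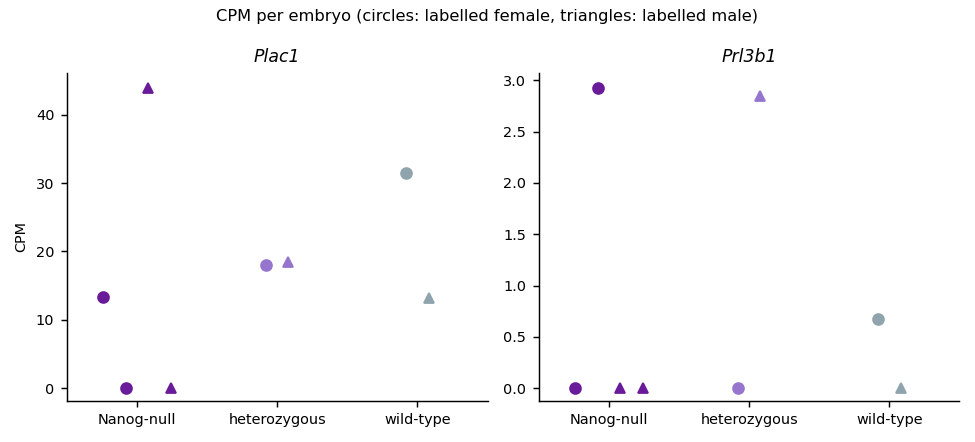
CPM of Plac1 (left) and Prl3b1 (right) in each embryo, by Nanog genotype, with circles for embryos labelled female and triangles for male. Plac1 is at 0 in 2 of 4 null embryos and between 13.1 and 31.5 CPM in the Nanog-bearing ones, and Prl3b1 is at 0 in 5 of 8 embryos.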

How the data were processed

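The authors deposited raw counts per gene symbol, as whole numbers, for 22 libraries. The submitters' processing notes name TopHat 1.3.1, edgeR and build mm9. No source used here gives the counting program, the annotation or the strand setting, so overlapping and near-identical genes are uncertain. Per the labels, line libraries came from 2 passages per line and embryo libraries from amplified cDNA.

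Tests on the counts ran in R 4.3.3 with edgeR 4.0.16, using its robust quasi-likelihood F test with TMM, filterByExpr and Benjamini-Hochberg adjustment over all genes (threshold 0.05). Lineages were compared with the 2 libraries of a line summed, TS lines over all 14 line libraries (7 residual degrees of freedom, so that p-values measure the spread between passages), and embryos with genotype and sex. DESeq2 1.42.0 and limma 3.58.1 were alternatives, and the fits were tested on simulated data. Each SE is the fold change on the log2 scale divided by the root of F. CPM used the deposited totals, and likeness used a prior count of 2. Counting intervals are exact at 95%, and the floor is 3 counts. Positions, exon lengths and transcripts came from GENCODE M21, and promoters from RefSeq, matched by symbol.

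Beyond the 8, genes were named by likeness (candidates at 5 CPM or more), as up to 4 genes per list by their test of TS against ES lines, and as fixed regulators (Hand1, Ascl2, Cdx2, Eomes, Elf5). Ctsj, Ctsr, Prl7a1, Hsd11b2, Col1a1, Cdh5, Kdr, Laptm5, Cd68, Lyz2, Star, Cyp11a1, Ovgp1, Ets2 and the stem-state genes given between TS lines were named after their values were seen. The 8 genes and the lists were chosen with earlier results of these data known.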

Additional observations from a re-analysis of the deposited data

Results flagged for a closer look

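Among the 4 Nanog-null embryos Prl3b1 stood at 2.92 CPM in female 2 and at 0 in the other 3, which set that embryo far from the rest of its group. With 3 of 4 values at 0, any counts in the remaining embryo give the widest possible gap. The heterozygous male had 2.84 CPM.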

How the results depend on the processing

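Of the single-gene values under alternatives, 514 kept direction and call, 20 gained a call, 5 lost one and 14 turned sign, all 14 without a call. Between TS lines, 7 of the 8 genes passed under every alternative that kept all TS libraries, for the joint test and for TS_F1 and TS_F2 over TS_M3. Of these, Prl3b1, Prl4a1, Tpbpa and Ctsq passed the filter only through TS_M3, which every alternative kept. Counts of all genes called moved more. With only the 6 TS libraries in the fit they were 4632 (joint, main 2899), 491 (TS_F1 over TS_F2, main 222) and 3790 (TS_F2 over TS_M3, main 2217), and DESeq2 gave 508 for TS_F1 over TS_F2. Leaving out 1 TS library gave 682 to 2173 (joint), 82 to 188 (TS_F1 over TS_F2, with 0 to 1 of the 8 genes), 631 to 2590 (TS_F1 over TS_M3, main 2932) and 364 to 1893 (TS_F2 over TS_M3), lowest without TS_M3 replicate 1 for the joint test and both comparisons with TS_M3. Such a fit takes the lone library to vary like the other lines.

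The replicate numbers do not pair the libraries: replicate differences correlated at -0.104, -0.0139 and 0.0730 between lines. A replicate block gave 2678, 198, 2733 and 2006 genes (joint, TS_F1 over TS_F2, TS_F1 over TS_M3, TS_F2 over TS_M3), and 1 of the 8, Prl3d1, then passed for TS_F1 over TS_F2.

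Between lineages, leaving out 1 line gave 2429 to 6233 genes for TS over ES (main 6063, lowest without ES_F1) with 1 to 4 of the 8 genes, 0 to 3 of the 8 for TS over XEN (0 without either XEN line), and 3997 to 7646 genes for ES over XEN (main 6630) with 0 to 1 of the 8. With sex as a term 4, 4 and 1 of the 8 passed for TS over ES, TS over XEN and ES over XEN. For TS over ES, DESeq2 and no filter each left 1. Summed copies, with Prl2c3 entered under both its names, gave 3 for TS over ES and 2 for TS over XEN. In embryos 50 genes passed without a filter, 87 by DESeq2, 1 to 2 without an embryo, and 1 without null female 1 and male 2, which lack the most genes among the embryos (chosen after seeing the data). The causes were not tested.

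Log2 values that turned sign were 0.18 (voom) for Prl2c2 and Prl3d1 in ES over XEN, with -3.91 to 2.57 for Prl2c2 without a line. For TS_F1 over TS_F2, leaving out a library gave -0.86 to 0.34 (Plac1), -2.37 to 3.69 (Prl3b1) and -2.36 to 1.99 (Prl4a1), and for TS_F1 over TS_M3 -0.87 to 0.38 (Gcm1). In embryos Prl3b1 had 0.19 without the sex term and 1.02 against wild type alone, and leaving out an embryo gave -6.87 to 4.42 (Prl3b1) and -3.27 to 0.0033 (Plac1). Near 0 counts, depth limits these signs.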

Other observations

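Traces of the prolactin family appeared in a few libraries outside the TS lines. In the second library of XEN_M1, 8 of 26 prolactin genes had counts (Prl2c3 and Prl2c4 counted once), 15 in all, and in the second library of XEN_M2 1 gene had 1 count, while the first library of each XEN line had none. Of 4 ES libraries 1 had prolactin counts, 4 in all. In the wild-type female embryo 6 of 26 had counts, 60 in all, and the heterozygous male had 42 counts of Prl3b1 and 17 of Prl, the pituitary hormone gene of the family. The other embryos had counts for at most 1.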
